A study of Mus musculus with 6 samples.

Results

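The diploid mouse embryonic fibroblast line of the study is described here on its own, from the 3 samples titled as diploid out of 6 in the series. The other samples belong to a tetraploid line and entered only the choice of 1 probe set per gene. All 3 diploid samples carry the genotype label "normal control", and the labels name no transgene, deletion or drug. They give no strain, embryonic stage or passage number either. The cells were grown in DMEM with fetal bovine serum until the dish was mostly covered, and total RNA depleted of ribosomal RNA was hybridised to 1 Affymetrix whole-transcript gene array per sample. The samples are called 1, 2 and 3 after the numbers in their titles, which are names and mark no order, time or passage. Whether they came from separate cultures or embryos is not in the labels, so the spread between them may be technical, and it describes 1 line.

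Embryonic fibroblasts are connective tissue cells cultured from a minced embryo. They secrete and crosslink collagen, fibronectin and proteoglycans, and they pull on that matrix with actin and myosin through integrins. On plastic and in serum they take on a contractile, wound-like state with smooth muscle actin. A primary outgrowth is also known to carry other cells of the embryo, macrophages among them, which is why markers of other cell types were read beside those of fibroblasts.

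Levels are the deposited log2 values, so 1 unit is a 2-fold difference in signal. Of 19856 genes with a probe set of their own, 9902 (49.9%) lay above the background level on all 3 arrays and 7936 on none. Background was taken on each array as the 95th percentile of 1027 olfactory receptor genes, which fibroblasts are not known to use, and lay at 7.23, 7.26 and 7.01 in samples 1, 2 and 3. Gene medians were 7.48, 7.46 and 7.47, and 10756, 10594 and 11300 genes lay above background. Across genes above background on all 3, which are not independent replicates, Pearson's r was 0.977 for samples 1 and 2, 0.970 for samples 1 and 3 and 0.976 for samples 2 and 3. The median SD over the 3 samples was 0.14 for these genes and 0.24 over all genes. It ran from 0.65 in the 10% of genes with the lowest signal to 0.10 in the 10% with the highest, so a difference is better measured in bright genes. Arrays hold no counts, and 3 arrays limit the precision.

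The brightest probe sets of the diploid line belonged to matrix, contractile and protein synthesis genes. Probe sets differ in their response, so their ranks order signals and not transcript numbers, and no fold is taken between genes. Thbs1, the matrix and platelet glycoprotein thrombospondin 1, read 14.33, 14.35 and 14.27 in samples 1, 2 and 3. Acta2, smooth muscle actin and the usual marker of activated fibroblasts, read 14.32, 14.29 and 14.31. The samples lay on top of each other for both genes, with SDs of 0.04 and 0.02. Among the 25 highest genes stood further matrix genes: Fn1 (fibronectin) at 13.94 ± 0.10 (SD, n = 3), Col1a1 (the main chain of type I collagen) at 13.92 ± 0.03, Sparc at 13.60 ± 0.03, the proteoglycan Bgn at 13.59 ± 0.03 and the crosslinking enzyme Lox at 13.45 ± 0.12. The cytoskeletal genes were Actb, Vim, Tagln and Tpm1. Tagln, an actin-binding protein of smooth muscle, read 13.49 ± 0.01. Translation was represented by Eef1a1 at 14.06 ± 0.01 and by Pabpc1, Rps2, Rpl9, Rplp1 and Rpl19, of which the ribosomal protein genes have many processed copies that can share probes. The small nuclear RNA gene Rn7sk, the Y RNA gene Rny3, Ppia, the lysosomal genes Psap and Laptm4a, the disulfide isomerase Pdia3 and the p53 target Ccng1 made up the rest but 1.

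That remaining gene ranked first and cannot be assigned. Baiap2l1, a membrane-bending adaptor known from epithelia, had a probe set at 14.74 ± 0.05, but 1 of its 3 probe sets read 6.65 ± 0.48, which is below background. A further one read 14.58 ± 0.08. The probe sets disagreed on whether this gene was above background.

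**Figure D1:**
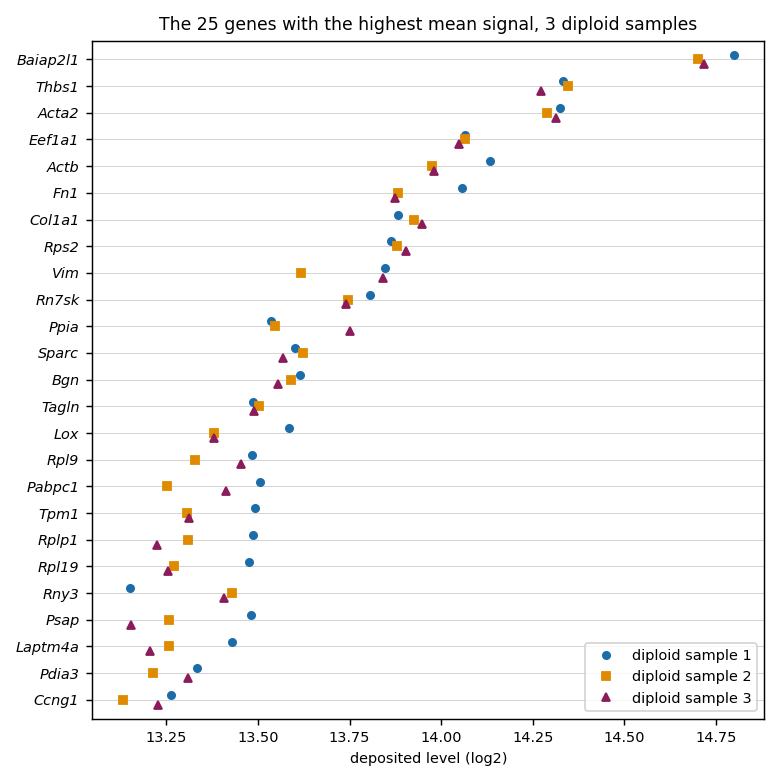
The 25 genes with the highest mean signal, 1 row per gene, with the deposited log2 level of each diploid sample as a point on the horizontal axis. The 3 points of a gene lie close together, from 14.80 at the top (Baiap2l1 in sample 1) to a mean of 13.21 at the bottom (Ccng1).

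Matrix genes were nearly all detected. Of 10 fibrillar collagen genes, 9 lay above background on all 3 samples, beside 49.9% of all genes, and 6 were in the top 10%, the genes with the highest mean, beside 10.0% of all genes by definition. Col1a2, the partner chain of Col1a1, read 12.90, 13.06 and 12.98. Col3a1, the fibrillar collagen of soft tissue, read 12.09, 12.56 and 12.35. Col5a1, which starts the assembly of fibrils, read 12.18, 12.24 and 12.25. Sample 1 was the lowest for all 3 of these collagens, by less than 0.5. Of 27 matrix glycoprotein genes 26 were above background on all 3 and 19 in the top 10%, and of 16 proteoglycan genes 15 and 8. The 16 other collagens, among them the basement membrane chains Col4a1 and Col4a2, gave 14 and 7.

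The machinery that folds and crosslinks collagen was detected in full. All 17 measured genes lay above background on all 3 samples, beside 49.9% of all genes, and 15 were in the top 10%, beside 10.0%. P4hb, a subunit of prolyl hydroxylase, read 12.90, 12.89 and 13.11, and the collagen chaperone Serpinh1 read 12.40, 12.47 and 12.52. The list's mean was 11.51 in each of the 3 samples. Matrix proteases and their inhibitors gave 19 of 22 above background on all 3. Mmp14, the membrane-bound collagenase, read 12.71, 12.91 and 12.71, beside its inhibitors Timp2 at 12.64, 12.52 and 12.47 and Timp3 at 12.19, 12.73 and 12.70.

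The contractile genes were bright and close to equal in the 3 samples. Of 23 contractile and smooth muscle genes, 22 lay above background on all 3 samples, beside 49.9% of all genes. In the top 10% were 19, beside 10.0%. The median difference of sample 3 minus sample 1 was -0.01. By 1 or more, 0 genes differed, beside 5.06% of all genes higher and 4.99% lower. In the top 10% of all genes only 0.352% spanned 1 or more, so this count is near that of bright genes at large. The smooth muscle myosin heavy chain Myh11 was the most variable, at 9.43, 9.99 and 9.12, with sample 2 the highest. Actg2, an actin of visceral smooth muscle, read 11.77, 12.40 and 11.89, again highest in sample 2. Actin, tubulin and annexin genes gave 17 of 17 above background on all 3, of which 16 were in the top 10%.

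The CArG box is the site that serum response factor is known to bind before actin and smooth muscle genes, so the 250 bases before the start of contractile genes were searched for it on both strands. It was found in 4 of 20 contractile genes with a promoter in the RefSeq table (20.0%) and in 1.62% of all 27025 genes of that table. A gene counted if any of its promoters matched. The matches in Cnn2 and Myl6, the brightest of the 4, are shown in capitals, 5′ to 3′ on the gene's strand, from RefSeq on GRCm38.p6. Cnn2, an actin-binding calponin, read 12.51, 12.62 and 12.70, and its stretch is chr10:79988499-79988598 on the plus strand. Myl6, a light chain of nonmuscle myosin, read 12.52, 12.58 and 12.49, and its stretch is chr10:128493010-128493104 on the minus strand.
Cnn2: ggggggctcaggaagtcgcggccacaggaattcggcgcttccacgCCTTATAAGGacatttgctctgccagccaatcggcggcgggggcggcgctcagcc
Myl6: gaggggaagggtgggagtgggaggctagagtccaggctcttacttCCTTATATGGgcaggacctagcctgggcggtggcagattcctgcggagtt
A match is a description of the letters and does not show a site in use. Only the strict form was searched: CC, a run of A or T alone, and GG, 10 bases in all. The window of Acta2, the brightest contractile gene, held no match to that form, and looser forms were not searched.

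Fibroblast identity genes were above background on all 3 samples for 17 of 19, beside 49.9% of all genes. In the top 10% were 13, beside 10.0%. Vim, the intermediate filament of mesenchymal cells, read 13.85, 13.62 and 13.84. Cdh11, a mesenchymal cadherin, read 12.75, 12.89 and 12.84, and the hyaluronan receptor Cd44 read 12.72, 12.56 and 12.74. Means of single genes over the 3 samples ran from 4.76 to 13.77 (Vim), and 2 of the 19 genes lay above background on no sample. The genes named here are bright members, and the identity of the cells was not tested. Pdgfra, a receptor that marks many fibroblasts, was the exception in steadiness: it read 9.22 in sample 1 against 10.29 and 10.28 in samples 2 and 3.

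Among mesenchymal transcription factors, Prrx1, a homeobox factor of limb and skull mesenchyme, read 12.01, 12.26 and 12.34, and Twist2 read 10.71, 10.98 and 11.11. Of 37 Hox genes, which set position along the body axis, 19 (51.4%) lay above background on all 3 samples, a share near the 49.9% of all genes, and 0 in the top 10%. Hoxc8 was the brightest at 9.63, 10.42 and 9.85, followed by Hoxc6 at 9.56, 9.90 and 9.52 and Hoxb9 at 9.08, 9.30 and 9.50. Hoxc10 differed most, at 5.06, 7.95 and 7.25, and only samples 2 and 3 were above background for it. Among 21 imprinted genes 17 were above background on all 3, led by the fetal growth factor Igf2 at 12.98, 12.70 and 12.92 and the growth inhibitor Grb10 at 12.61, 12.73 and 12.65. The Y-linked genes Eif2s3y (10.06, 9.99 and 9.92), Uty and Kdm5d lay above background in every sample, and Xist, the X inactivation RNA, read 5.03, 4.60 and 5.29, below it.

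Genes of growth signalling were bright. Ccn2, a matrix-associated factor driven by tension and TGF-beta, read 13.42, 13.01 and 12.94, and Ccn1 read 12.91, 12.85 and 12.90. Of 24 growth factor, BMP and antagonist genes 22 were above background on all 3 samples, and of 17 growth factor receptor genes 15 were. Over all genes this share was 49.9%. Axl, a receptor kinase, was the brightest receptor at 12.42, 12.32 and 12.53. Inflammatory factors ranged widely: Ptgs2, the inducible cyclooxygenase, read 12.78, 12.46 and 12.57 and Cxcl12 read 11.73, 12.01 and 11.29, while 9 of 27 members of that list lay above background on no sample, beside 40.0% of all genes.

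Cell cycle genes lay at middle levels. All 26 mitosis genes were above background on all 3 samples, but only 1 was in the top 10%. Of 23 DNA replication genes 21 were above background on all 3 and 3 in the top 10%. Over all genes these shares were 49.9% and 10.0%. Inhibitors of the cycle were detected beside them. Cdkn2b read 11.72, 11.62 and 11.50, and Cdkn2a, the locus that limits the growth of cultured mouse fibroblasts, read 10.58, 10.26 and 10.05. The p53 target Ccng1 read 13.26, 13.13 and 13.23.

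The housekeeping lists were detected almost throughout, where 49.9% of all genes were above background on all 3 samples. The counts above background on all 3 samples were 26 of 26 for the proteasome, 24 of 24 for the respiratory chain, 19 of 19 for the lysosome, 16 of 16 for cholesterol synthesis, 15 of 15 for endoplasmic reticulum chaperones, 14 of 14 for translation factors and 12 of 12 for glycolysis. Ribosomal protein genes gave 62 of 68. The top 10% held 24 of the 26 proteasome genes and 16 of the 19 lysosome genes, beside 10.0% of all genes. The glycolytic genes Pkm and Ldha, pyruvate kinase and lactate dehydrogenase, read 12.94 ± 0.07 and 12.92 ± 0.05.

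Most lists of markers of other cell types were above background less often than the 49.9% of all genes, and neural and glial markers, at 8 of 12 on all 3 samples, more often. MHC class II genes were above it in 0 of 6 on any sample, and erythroid genes in 1 of 7 on 1 sample. On all 3 samples, endothelial markers were above background for 4 of 12, epithelial markers for 4 of 13, adipocyte markers for 1 of 10 and lymphocyte and mast cell markers for 1 of 11. Pecam1, a defining endothelial adhesion molecule, read 6.32, 6.46 and 6.42, below background on every array. Cartilage and bone markers gave 3 of 12, and of these Col2a1, the cartilage collagen, was bright at 11.65, 12.02 and 11.99, with Col9a1 at 9.54, 9.58 and 9.43 and the cartilage regulator Sox9 at 8.09, 8.48 and 8.58. Skeletal muscle markers gave 5 of 15. Acta1, the actin of skeletal muscle, read 12.16, 11.57 and 11.11. In bulk RNA, fewer cells of a type and less RNA per cell cannot be told apart.

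**Figure D2:**
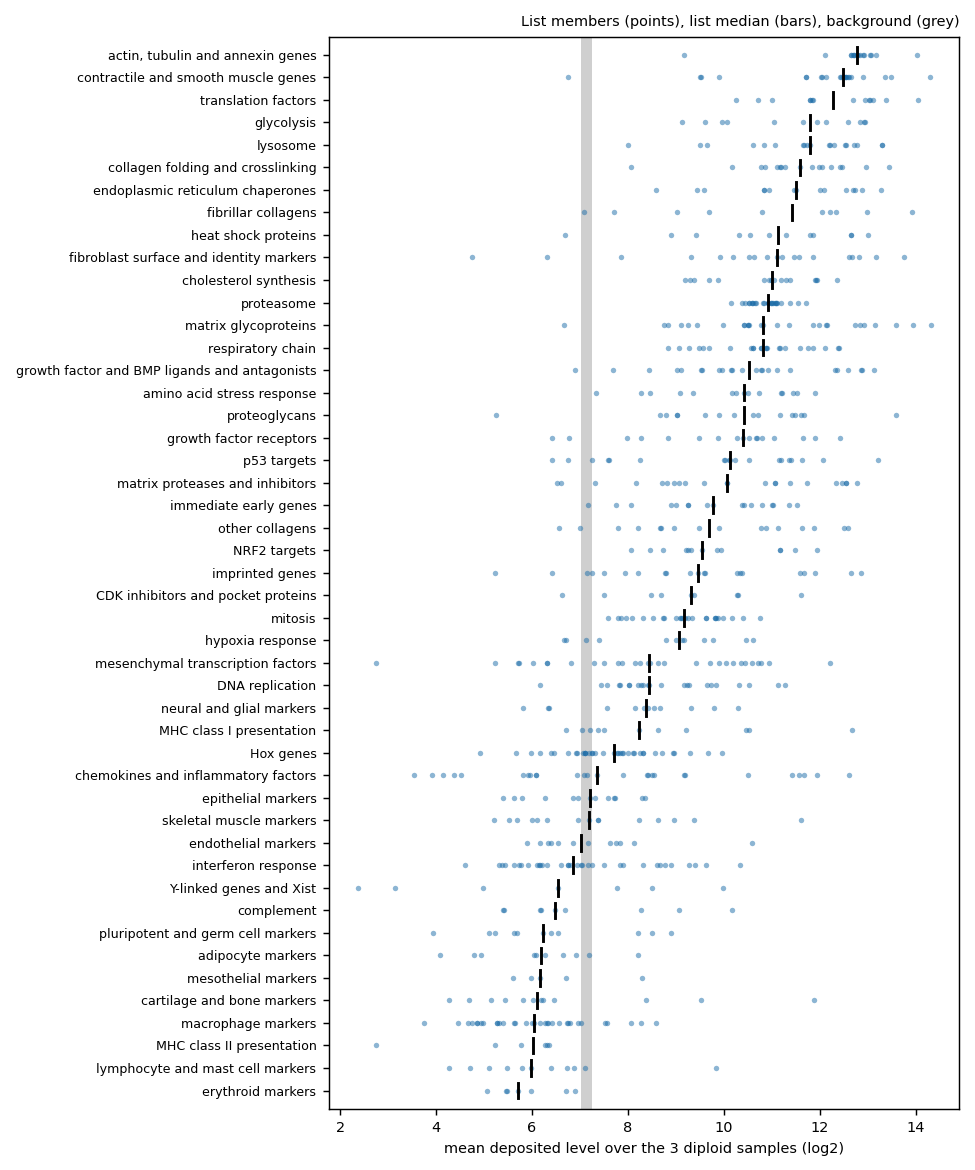
Mean deposited log2 level over the 3 diploid samples of each measured list member (points) and the list median (bars), with lists sorted by median and the range of the 3 background levels in grey. Actin, contractile and translation lists lie at the right with medians of 12.78, 12.48 and 12.27. The macrophage, lymphocyte, erythroid and interferon lists are among those with medians left of the background band.

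The 3 diploid samples differed by 1 log2 unit or more between the highest and the lowest in 616 of 11920 genes above background on at least 1 of them (5.17%). There is 1 array per sample, so no difference between samples has a replicate check, no test was made, and a gene is counted when it passes the 2-fold difference. Sample 3 was higher than sample 1 by 1 or more in 193 genes (1.62%) and lower in 187 (1.57%). Sample 2 was higher than sample 1 in 148 (1.24%) and lower in 116 (0.973%), and sample 3 was higher than sample 2 in 116 (0.973%) and lower in 96 (0.805%). Samples 1 and 3 were thus the pair furthest apart by this count. Sample 2 lay between samples 1 and 3 in 161 of the 193 higher genes and in 161 of the 187 lower ones. These genes were picked for a distance of 1 or more between samples 1 and 3, which makes a value between them likely. The counts therefore show no gradient over the samples.

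Most of these genes crossed the background level. In sample 1, 143 of the 193 higher genes were at or below background, and in sample 3, 137 of the 187 lower ones were. Among genes above background on all 3 samples, 49 were higher in sample 3 (0.495%) and 48 lower (0.485%). Of the 193 higher genes, 13 were in the macrophage list and 17 in the interferon list. Of the 187 lower genes, 0 were in either list. Only 15 macrophage and 24 interferon members passed the filter of background on at least 1 sample. Of these, 15 and 23 were above background in sample 3, but 3 and 13 in sample 1. The filter thus favoured members high in sample 3, and these counts are no separate support for a difference. A further 146 of the higher genes and 179 of the lower ones were in none of the gene lists used. The lists were chosen with earlier results of these data known, so these counts depend on that choice.

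**Figure D3:**
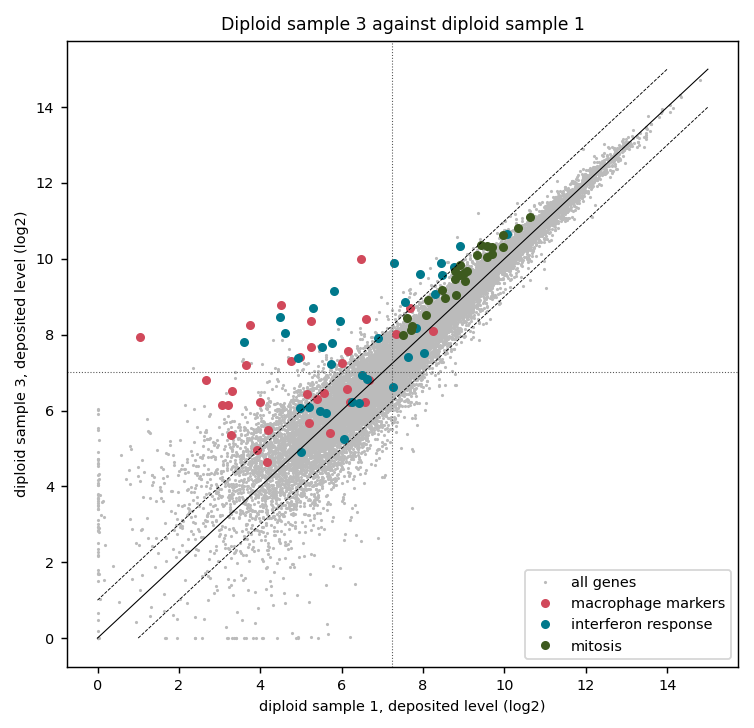
Deposited log2 level of every gene in diploid sample 3 (vertical axis) against sample 1 (horizontal axis), with macrophage, interferon and mitosis list members in colour, dashed lines 1 log2 unit from the diagonal and dotted lines at the background levels. Bright genes hug the diagonal, the cloud widens toward low levels, and the coloured points of the macrophage and interferon lists lie mostly above the diagonal.

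Macrophage markers had the largest median difference of the lists on the deposited values, though 18 of 33 lay above background on no sample. With values raised to background their median was -0.21, against 0.60 for mitosis and 0.51 for interferon genes. Lyz2, the lysozyme of macrophages and granulocytes, read 6.48, 9.32 and 9.98. Lyz1, a near-identical copy whose probes may share transcripts with it, read 4.51, 7.76 and 8.78. C1qb, a chain of complement C1q made by macrophages, read 3.74, 7.25 and 8.27. For all 3 genes sample 1 lay below its background level, and sample 3 was the highest. Taking sample 1 at its background level, sample 3 was at least 6.76-fold higher for Lyz2, at least 2.93-fold for Lyz1 and at least 2.06-fold for C1qb. C1qc, a further chain of C1q, read 1.04, 6.86 and 7.94, where the value of sample 1 is near the floor of the scale, so only the bound of at least 1.63-fold is given.

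The list as a whole followed these genes. Its mean over 33 measured markers was 5.03, 6.20 and 6.95 in samples 1, 2 and 3. Above background lay 3, 7 and 15 of the 33, beside 54.2%, 53.4% and 56.9% of all genes. The background level was lower in sample 3, at 7.01 against 7.23 and 7.26 in samples 1 and 2. Sample 3 was higher than sample 1 by 1 or more in 22 of 33, beside 5.06% of all genes, and lower by as much in 0, beside 4.99%. Sample 3 was the highest of the samples in 29 of 33, beside 39.2% of all genes. With every value raised to the array's background level, 6 of 33 were past the 2-fold difference, beside 0.327% of all genes, and the median difference of 1.42 became -0.21, the difference between the background levels themselves. Several defining markers were low: Adgre1, the antigen known as F4/80, read 3.28, 4.74 and 5.35, Itgam read 3.22, 5.20 and 6.15, and Cybb, the oxidase subunit of phagocytes, read 3.06, 5.59 and 6.16. None of the 3 exceeded background on any array. Csf1r, the receptor for the macrophage growth factor, did so in sample 3 alone, at 6.16, 6.53 and 7.57, and Spi1, a transcription factor of myeloid cells, in every sample, at 7.68, 8.42 and 8.71.

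Macrophage genes outside the C1q and lysozyme families lay in the same order. Ctss, the cathepsin of antigen-presenting cells, read 5.25, 7.29 and 8.36. Fcer1g, the shared signalling chain of Fc receptors, read 6.60, 7.55 and 8.42, and sample 3 was at least 2.29-fold above sample 1. Mpeg1, a pore-forming protein of macrophages, read 3.66, 6.09 and 7.20, where sample 3 lay above its own background but below that of sample 1. C3ar1, a complement receptor of myeloid cells, read 4.68, 6.46 and 7.42. The markers with no such order included Fcgr1 at 8.23, 7.89 and 8.08 and Aif1 at 5.70, 5.79 and 5.41.

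Interferon response genes differed in the same direction, and some did so at higher signal. Of 34 measured, 12 lay above background on all 3 samples, beside 49.9% of all genes, and 10 on none, beside 40.0%. The median level of the list was 6.86, below background on every array, and the genes named first are bright members. Bst2, the virion-tethering protein tetherin, read 7.28, 8.62 and 9.90, above background in every sample, and sample 3 was 6.14-fold above sample 1. Irf9, a subunit of the complex that interferon activates, read 7.92, 8.78 and 9.59, a 3.19-fold difference. Stat2, its partner, read 7.56, 8.52 and 8.87, a 2.48-fold difference. For each of them sample 1 was the lowest and sample 3 the highest. Ddx58, the cytoplasmic RNA sensor RIG-I, followed at 8.92, 9.62 and 10.33, as did the ubiquitin ligase Trim25, which acts on it, at 8.76, 9.32 and 9.77.

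Several interferon effectors were below background in sample 1 and above it in sample 3. Ifit1, which binds viral RNA ends, read 3.61, 5.45 and 7.81. Oasl2, a member of the oligoadenylate synthetase family, read 4.48, 5.98 and 8.47. Irf7, the amplifier of interferon production, read 4.60, 5.88 and 8.03. In all 3, samples 1 and 2 were both below background. Sample 3 was at least 1.49-fold, 2.36-fold and 1.75-fold above the background level of sample 1 for Ifit1, Oasl2 and Irf7. Xaf1 read 5.30, 7.13 and 8.69, and Rtp4 read 5.82, 6.54 and 9.15. Interferon genes often have close paralogs, as the Ifit, Oas and Ifi200 families do, and the sharing of probes among them was not tested.

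Over the 34 measured interferon genes, the mean was 6.56, 6.97 and 7.83 in samples 1, 2 and 3. Above background lay 13, 12 and 23, beside 54.2%, 53.4% and 56.9% of all genes, with the lowest background level in sample 3. Sample 3 exceeded sample 1 by 1 or more in 18 of 34, beside 5.06% of all genes. It was lower by as much in 0, beside 4.99%. With values raised to background 11 of 34 were past the 2-fold difference, beside 0.327% of all genes. The median difference was 1.04 for sample 3 minus sample 1 and 0.46 for sample 2 minus sample 1, while over all genes those medians were 0.02 and -0.04. Not every member was higher. Ifit2 read 7.62, 7.48 and 7.41, Oasl1 read 8.01, 8.18 and 7.51, and Cmpk2 read 6.25, 6.13 and 6.22. The macrophage list means of 5.03, 6.20 and 6.95 stood in the same order over the samples as the interferon means, and their part in the interferon difference was not tested.

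The interferon-stimulated response element, the site bound by the STAT and IRF complex, was searched as its core, a pair of GAAA repeats with any 2 bases between them. In the 250 bases before the start, on either strand, 10 of 24 interferon genes with a RefSeq promoter held it (41.7%). Of all 27025 genes with a promoter there, 3.46% did, a gene counting if any of its promoters matched. The 4 genes with the largest difference among those 10 are shown because they carry both the core and the difference, with every match to the core in capitals. Sequences are on the gene's strand, so a core on the opposite strand reads as a pair of TTTC repeats. Coordinates are GRCm38.p6: Ifit1 chr19:34640759-34640858 (plus), Bst2 chr8:71537542-71537641 (minus), Gbp3 chr3:142559960-142560043 (plus) and Ifi203 chr1:173942493-173942572 (minus).
Ifit1: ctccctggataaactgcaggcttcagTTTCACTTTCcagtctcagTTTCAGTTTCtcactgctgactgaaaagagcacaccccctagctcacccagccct
Bst2: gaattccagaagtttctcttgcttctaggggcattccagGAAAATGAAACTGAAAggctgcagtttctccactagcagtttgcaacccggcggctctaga
Gbp3: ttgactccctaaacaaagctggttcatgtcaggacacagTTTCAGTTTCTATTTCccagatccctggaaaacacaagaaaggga
Ifi203: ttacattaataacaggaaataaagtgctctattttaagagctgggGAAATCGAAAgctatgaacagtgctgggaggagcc
Ifit1, Bst2 and Gbp3 each held 2 matches, overlapping in Bst2 and Gbp3, and Ifi203 held 1. The match nearest the start ended 76 bases before it in Ifit1, 115 in Bst2, 30 in Gbp3 and 26 in Ifi203. Gbp3, an interferon-induced GTPase, read 4.93, 5.99 and 7.38, and Ifi203, of the interferon-inducible DNA-binding family, read 5.52, 6.58 and 7.68. The core did not separate the genes by their difference: sample 3 was higher by 1 or more in 5 of the 10 genes with it and in 7 of the 14 without it, with median differences of 1.10 and 1.01.

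Genes of MHC class I presentation, which interferon is known to induce, differed by less. Of 11 such genes, 10 were higher in sample 3 than in sample 1, beside 52.4% of all genes, with a median of 0.37. By 1 or more, 0 were higher, beside 5.06% of all genes. Tap1, a subunit of the peptide transporter, read 7.96, 8.15 and 8.59. Among genes outside the lists, Lgals3bp, a secreted galectin ligand, read 9.35, 10.58 and 11.21, the ubiquitin ligase Rnf213 read 8.17, 8.89 and 9.76, and Parp9 read 7.93, 8.39 and 9.37.

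Mitosis genes showed a different pattern, with sample 3 apart from samples 1 and 2. All 26 measured genes were highest in sample 3, beside 39.2% of all genes, and the list means were 8.97, 8.89 and 9.57. The median difference was 0.60 for sample 3 minus sample 1 and 0.68 for sample 3 minus sample 2, but -0.06 for sample 2 minus sample 1. No gene reached 1 between samples 3 and 1, where 5.06% of all genes were higher by as much. Top2a, the topoisomerase that untangles chromosomes, read 9.95, 9.93 and 10.63. Plk1, a kinase that drives entry into mitosis, read 9.42, 9.66 and 10.37. Birc5, the passenger protein survivin, read 8.12, 7.94 and 8.91. Samples 1 and 2 lay close together for each and sample 3 lay above both.

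DNA replication genes were also highest in sample 3, by less. Sample 3 was higher than sample 2 in 23 of 23, beside 57.4% of all genes, and higher than sample 1 in 21 of 23. The median difference was 0.32 for sample 3 minus sample 1 and -0.18 for sample 2 minus sample 1. Mcm6, of the replicative helicase, read 9.06, 8.98 and 9.78, and Pcna, the sliding clamp, read 11.12, 10.86 and 11.43. Both probe sets of Pcna and both of Tk1 were above background on all 3 samples and put sample 3 above sample 1, by 0.31 to 0.32 for Pcna and 0.41 to 0.66 for Tk1. Unlike the macrophage and interferon differences, these lists did not place sample 2 between the others.

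The cell cycle homology region, with the letters TTTGAA, is known from promoters that are held back until mitosis. On either strand of the 250 bases before the start it was found in 10 of 23 mitosis genes (43.5%) and in 18.3% of all genes with a RefSeq promoter. Ect2 and Kif11, the genes of the 10 with the largest difference, are shown with the letters in capitals.
Ect2: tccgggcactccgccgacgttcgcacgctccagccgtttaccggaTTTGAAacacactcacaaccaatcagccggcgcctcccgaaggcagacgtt
Kif11: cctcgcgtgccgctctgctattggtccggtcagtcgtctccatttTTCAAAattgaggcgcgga
The stretches are chr3:27153942-27154037 (minus) and chr19:37376318-37376381 (plus) on GRCm38.p6. Ect2, a regulator of cell division, read 8.92, 9.03 and 9.83, and the spindle motor Kif11 read 8.79, 8.92 and 9.68. Sample 3 was above sample 1 in all 10 genes with the letters and in all 13 without them.

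**Figure D4:**
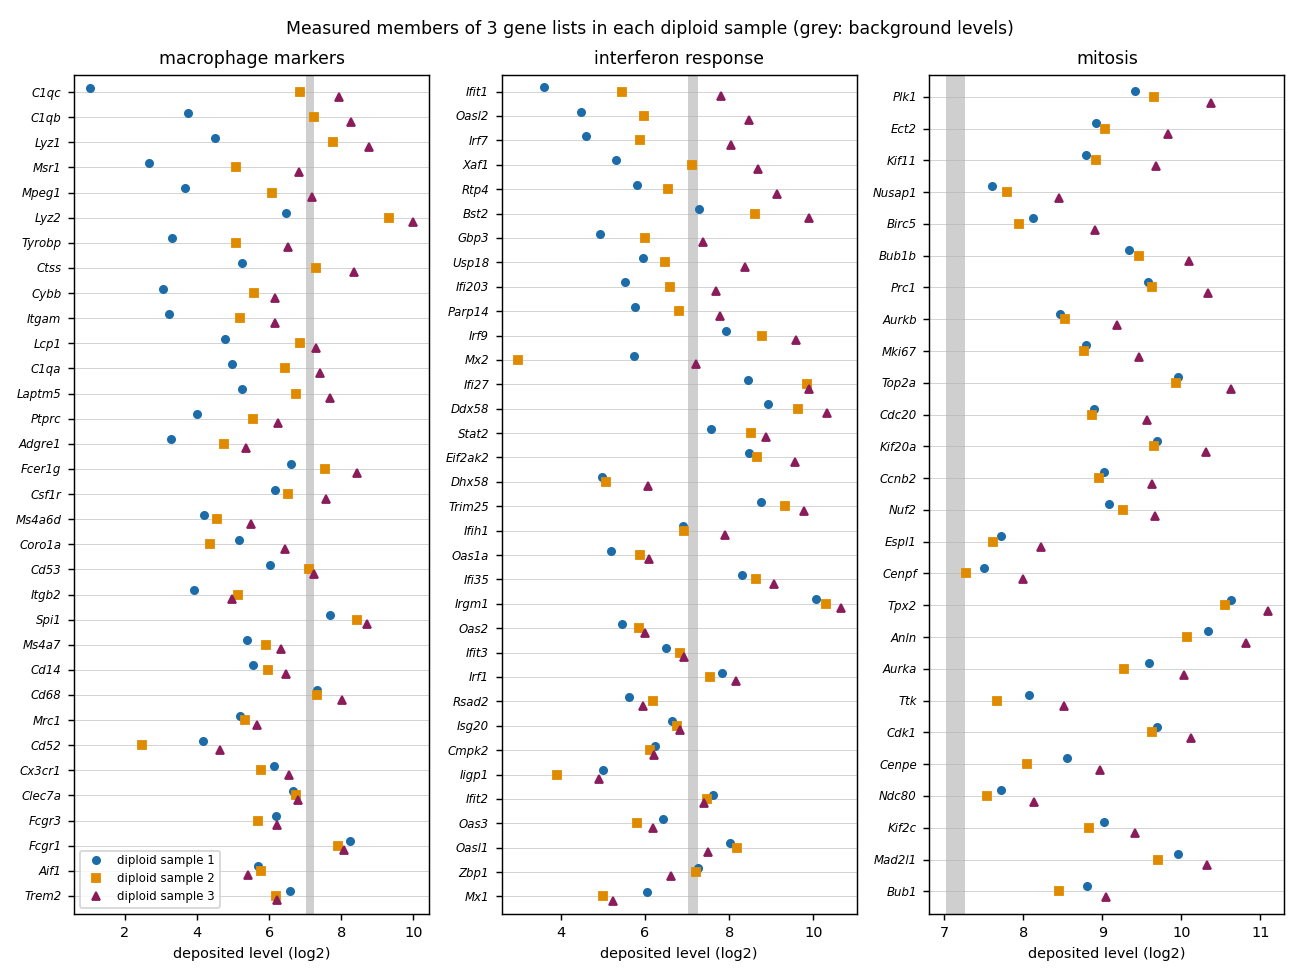
Deposited log2 level in samples 1, 2 and 3 (coloured points) of every measured member of the macrophage, interferon and mitosis lists, 1 row per gene, with the range of the background levels in grey. Macrophage members mostly start left of the grey band in sample 1, many interferon members cross it, and mitosis members lie right of it with sample 3 the rightmost point in all 26.

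Cholesterol synthesis set sample 1 apart from the others. All 16 measured genes were lower in sample 1 than in sample 2, where 44.5% of all genes were, and all 16 were lower than in sample 3, where 52.4% were. The median differences were 0.34 and 0.29, and samples 2 and 3 differed by a median of -0.03. Fdps, which makes farnesyl diphosphate, read 11.67, 12.10 and 12.05. Mvd, an enzyme of the mevalonate pathway, read 8.90, 9.53 and 9.48. Amino acid stress genes also had sample 1 lowest in 13 of 15, beside 32.5% of all genes, with a median of 0.38 for sample 3 minus sample 1. Slc7a5, a transporter of large neutral amino acids, read 11.14, 11.41 and 11.78, and Asns, asparagine synthetase, read 11.69, 11.95 and 12.05.

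Sample 1 was the lowest in 10 of 16 proteoglycan genes, 8 of 16 other collagens and 13 of 27 matrix glycoproteins, beside 32.5% of all genes, and the glycoproteins had a median difference of only 0.01 for sample 3 minus sample 1. Lum, the small proteoglycan lumican, read 8.12, 9.48 and 9.50. Dcn, the related decorin, read 11.07, 11.94 and 11.44. Col6a3, a chain of the beaded-filament collagen, read 10.30, 10.90 and 11.47, and its partner chains Col6a1 and Col6a2 read 10.72, 11.26 and 11.42 and 10.26, 10.92 and 11.17. Sample 1 was the lowest for each of these genes, while Col1a1 spanned only 0.07. Lama4, a laminin chain, Fbn2, a fibrillin of embryonic microfibrils, Fbln1 and Tgfbi were likewise lowest in sample 1 and highest in sample 3. Tgfbi read 8.55, 9.14 and 9.61.

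Among genes above background on all 3 samples, Ccn3, a matricellular growth regulator, had one of the widest spreads at 8.83, 11.44 and 10.57. Clca3a1 and Clca3a2, neighbouring and similar genes whose probes may share transcripts, read 8.33, 10.26 and 10.02 and 7.51, 9.34 and 9.13. In these 3 genes sample 2 was the highest and sample 1 was alone at the bottom. Lgr5, a receptor for R-spondins, read 7.67, 8.33 and 9.19. Srpx read 7.67, 8.90 and 9.10. The imprinted genes Dlk1, at 8.88, 9.24 and 10.25, and Mest, at 9.15, 9.53 and 10.11, were also highest in sample 3.

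Most genes lower in sample 3 (179 of 187) were outside the lists used, as were 146 of the 193 higher ones. Those lists were chosen with earlier results of these data known. Pmaip1, the p53 target Noxa, read 11.01, 9.83 and 9.23, and sample 3 was 3.44-fold below sample 1. Of 19 p53 targets 5 were higher in sample 3 than in sample 1, beside 52.4% of all genes, with a median difference of -0.15. Lysosome genes had sample 3 below sample 1 in 17 of 19, beside 47.6% of all genes, with a median of -0.19. Ctsh, a lysosomal protease, read 8.44, 8.23 and 7.33, and Ctsd, cathepsin D, read 12.96, 12.82 and 12.54. In both, samples 1 and 2 were close and sample 3 lowest.

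Structural and membrane genes were among the others lower in sample 3. Acta1 read 12.16, 11.57 and 11.11, unlike Acta2, which spanned 0.03. Col10a1, the collagen of growth plate cartilage, read 9.48, 8.28 and 8.29, with sample 1 alone at the top. Slc46a3, a lysosomal transporter, read 9.37, 8.45 and 7.85. Mc1r read 9.24, 8.22 and 7.94, and Stra6, the retinol uptake receptor, read 8.49, 7.82 and 7.29. The 15 genes with the largest lower difference when background in sample 3 was allowed included the receptors Olfr1233 (8.82, 7.83 and 6.66), Vmn1r84 and Vmn1r224, of families that served as or resemble the background set, and all 15 ended at or below background in sample 3.

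**Figure D5:**
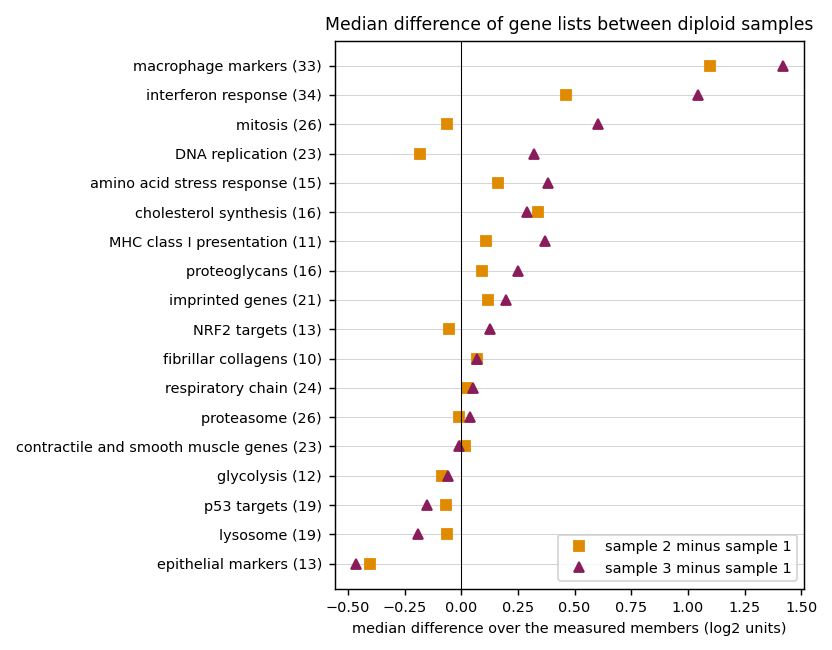
Median difference in log2 units over the measured members of each list, as sample 2 minus sample 1 (squares) and sample 3 minus sample 1 (triangles), with the number of members in brackets. The triangles of the macrophage list (1.42) and the interferon list (1.04) lie furthest right, and the mitosis list has its triangle at 0.60 and its square at -0.06.

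Sample 2 stood apart in single genes. Krt18, a keratin of simple epithelia, read 6.72, 8.99 and 7.03, while its usual partner Krt8 read 6.96, 7.20 and 6.72 and lay below background on all 3 arrays. Tfap2b, a transcription factor of neural crest, read 6.96, 4.39 and 7.25. Nrn1, a neurite growth protein, read 9.07, 7.42 and 8.67, and Nqo1, an antioxidant enzyme under NRF2, read 8.36, 7.43 and 8.40. NRF2 targets were higher in sample 3 than in sample 2 in 12 of 13, beside 57.4% of all genes, with a median difference of 0.37. Sample 2 was the value farthest from the middle one in 114 of the 616 varying genes, against 282 for sample 1 and 220 for sample 3.

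The steadiest bright genes spanned almost nothing. Among the 10% of genes with the highest mean, the smallest ranges were those of Glud1 (glutamate dehydrogenase), Chst12, Coro1c, Inca1, Capns1, Ubxn4, Rpl29 and Itfg1, with ranges from 0.00614 to 0.0126. Glud1 read 11.46 and Capns1, the small calpain subunit, 12.28 on average. Only 7 of those 1986 genes spanned 1 or more (0.352%), compared with 63.2% in the lowest 10%.

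MicroRNA genes were read through their precursor or host transcripts, since whole-transcript probes do not report mature microRNAs. Of 291 such genes 51 (17.5%) lay above background on all 3 samples, beside 49.9% of all genes. Mature sequences in the RefSeq table on GRCm38.p6 were found for 44 of the 51. The microRNAs of the 5 pairs of genes that share a seed (bases 2 to 8, in capitals) are printed with that of Mir484, which had the largest difference. Mir129-1 and Mir129-2 give the same miR-129-5p, and Mir680-2 and Mir680-3 the same miR-680.
miR-484: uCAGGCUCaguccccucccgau
miR-212-3p: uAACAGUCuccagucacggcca
miR-132-3p: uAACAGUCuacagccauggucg
miR-92b-3p: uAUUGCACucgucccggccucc
miR-25-3p: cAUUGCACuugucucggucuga
miR-181c-5p: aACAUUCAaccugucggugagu
miR-181d-5p: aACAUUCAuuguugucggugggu
miR-129-5p: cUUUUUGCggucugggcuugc
miR-680: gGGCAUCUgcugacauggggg
Mir484 read 10.97, 10.25 and 9.74, highest in sample 1 and lowest in sample 3. Mir212 and Mir132, neighbours on chromosome 11 with the seed AACAGUC, read 8.996, 8.35 and 7.93 and 7.85, 7.62 and 7.51. Of the 44 genes, 31 were lower in sample 3 than in sample 1, beside 47.6% of all genes, with a median of -0.30. Lower by 1 or more were 2 of the 44, Mir484 and Mir212. That share was 4.99% over all genes and 0.485% over genes above background on all 3 samples. Genes with a common seed differed alike in some pairs and not in others. Mir129-1 and Mir129-2 both read lowest in sample 3, at 8.89, 8.90 and 8.53 and 8.71, 9.23 and 8.36. Mir680-2 and Mir680-3 read 7.98, 7.34 and 7.47 and 8.30, 8.27 and 8.03, both highest in sample 1. In contrast, Mir92b read 10.09, 10.36 and 10.22 where Mir25 read 7.86, 7.72 and 7.22, and Mir181c read 7.35, 7.52 and 7.47 where Mir181d read 8.22, 8.05 and 7.38. A group of 8 of these genes lay between 109572004 and 109734797 on chromosome 12, in the imprinted stretch that also carries Meg3. Of these 6 were higher in sample 3 than in sample 1, beside 52.4% of all genes, with a median of 0.15. By 1 or more, 0 were higher, beside 5.06% of all genes. Meg3 itself read 10.30, 10.29 and 10.56.

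How far a difference between samples can be trusted was read from genes with more than 1 probe set. Across 993 such genes, which are not independent replicates, the difference of sample 3 minus sample 1 in the brightest probe set and in the next correlated at r = 0.11 (Spearman's rho 0.26). Where both probe sets were above background on all 3 samples, in 568 genes, r was 0.55 (rho 0.53). Of 25 such genes whose first probe set differed by more than 0.5, the next had the same sign in 21. The correlation was lower when genes near background were included.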

How the data were processed

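Transcript levels were measured with Affymetrix whole-transcript mouse gene arrays, 1 per sample, and the values the authors deposited are on a log2 scale, 1 per probe set. The only tool per the submitters' processing notes is Affymetrix Expression Console; its version, algorithm and normalization are not given in the sources used here. To check the deposited log2 scale, linear values were formed for 73576 low values, of which 100% were multiples of a hundredth (tolerance 0.001).

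Of 28944 probe sets, 21789 carried 1 gene symbol, and 21698 of these matched the RefSeq table of GRCm38.p6 by Entrez ID. The probe set with the highest mean over all 6 columns was kept for each of 19856 genes. Values were used as deposited, with means and SDs over the 3 diploid samples. Background was the 95th percentile of 1027 olfactory receptor genes per array, and a difference of 1 log2 unit was the threshold. Folds against a sample at or below background use values raised to background and are lower bounds.

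Genes named by rule were the 25 with the highest mean, the 15 highest and 15 lowest by sample 3 minus sample 1 with sample 2 between, the 5 highest and 5 lowest in sample 2 alone where samples 1 and 3 lay within 0.5, the 4 brightest and 4 most variable members of each list, and the 8 steadiest bright genes. A repeat of the 15 and 15 among genes above background on all 3 samples, and list members beyond the 4, were chosen after values were seen. The 47 lists held 865 entries, of which 803 were measured, 2 through an older symbol. The members and lists were chosen with earlier results of these data known. Promoters and microRNAs came from RefSeq tables. Counting steps were tested on simulated data. Alternatives covered the background percentile, threshold, filter, scaling, choice of probe set and each sample left out. Python 3.11.15 with numpy 2.4.6, pandas 2.3.3, scipy 1.17.1 and matplotlib 3.10.9 was used.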

Additional observations from a re-analysis of the deposited data

How the results depend on the processing

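The counts of differing genes depended on how signals near background were treated; centring the columns, quantile normalization and averaging all probe sets of a gene kept all 4 counts within 1.5 times. For genes varying by 1 or more (616), sample 3 higher (193) and sample 3 lower (187), the counts were 1047, 317 and 324 with background at the 90th percentile and 171, 68 and 37 at the 99th. They were 157, 70 and 41 at 1.5 log2 units, 3308, 1005 and 991 over all genes with no filter, 164, 49 and 48 among genes above background on all 3 samples, and 218, 65 and 70 with values raised to background. At the 99th percentile 6382 genes were above background on all 3 samples, in place of 9902. Leaving out 1 sample, and then comparing the samples that remain, gave 201 to 374 varying genes, 106 to 190 higher and 86 to 184 lower. The probe set correlation of 0.11 became 0.55 where both probe sets were above background on all 3.

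The macrophage median of 1.42 became -0.21 with values raised to background. Over the 15 members above background on at least 1 sample it was 2.44. All 15 were above background in sample 3 and only 3 in sample 1. That filter thus picked members by their level in sample 3, and 2.44 is no separate support for the difference. The mitosis median of 0.60 ranged from -0.064 to 0.68 when each sample was left out, the lowest being without sample 3. With values raised to background the difference of sample 3 minus sample 1 took a negative sign for Ccl5 (-0.15), Lilr4b (-0.10), Mpeg1 (-0.031), Mx2 (-0.0096), Pitx1 (-0.097) and Uba7 (-0.21). Their levels lay below background in sample 1 and at most just above it in sample 3. The sign came from the background levels, 7.23 in sample 1 against 7.01 in sample 3. It shows no reversal of the deposited values. No paired analysis was possible because only 1 group was used and no result came from a test. Signal over background limits every difference of genes that are not above background in each sample, and 1 array per sample leaves none with a replicate check.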

Other observations

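Some groups outside the main account held values of note. Neural genes were detected in part, 8 of 12 above background on all 3 samples: S100b, a calcium-binding protein of glia and cartilage, read 9.87, 10.45 and 10.56, and Map2, a microtubule protein of neurons, read 10.15, 9.26 and 9.97. Stmn2, a tubulin-binding protein of growing axons, read 9.12, 8.03 and 8.87. Map2 and Stmn2 were both lowest in sample 2. Epithelial markers had a median difference of -0.46 for sample 3 minus sample 1, and 3 of 13 were lower by 1 or more, beside 4.99% of all genes, among them Cldn3, a tight junction protein, at 8.23, 7.79 and 7.12.

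Complement genes other than C1q differed by gene. Masp1, a protease of the lectin pathway, read 10.90, 9.51 and 10.13, lowest in sample 2, and Serping1, the C1 inhibitor, read 8.51, 9.34 and 9.37, lowest in sample 1. Igfbp2, a binding protein for insulin-like growth factors, read 9.63, 8.83 and 10.14, where Igfbp3 read 10.27, 11.10 and 10.64, so sample 2 was the lowest for the first and the highest for the second. Emcn, a sialomucin of endothelium, read 7.99, 8.24 and 6.62, and was above background in samples 1 and 2 alone. Deptor, an inhibitor of the mTOR kinase, read 3.58, 7.34 and 7.36, and Rerg, a small GTPase, read 5.92, 8.14 and 8.16; in both, sample 1 was below background and samples 2 and 3 lay close together above it.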
